A study of Mus musculus with 2 samples.

Results

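The receptors for the Epidermal Growth Factor (EGF) family and for the Fibroblast Growth Factor (FGF) family were examined in GL261 cells, a mouse glioma line of C57BL/6 origin, grown as adherent cells or as neurospheres. The members were taken by gene symbol, with no threshold on their values, and were 9 of the 32285 genes in the count tables: Egfr, Erbb2, Erbb3 and Erbb4, Fgfr1, Fgfr2, Fgfr3 and Fgfr4, and Fgfrl1. The study sequenced 1 single-cell library of adherent cells and 1 of neurosphere cells, to compare gene expression between these forms of the line. Both cultures grew in DMEM to which 10% FBS and 1% of a Penicillin-Streptomycin solution were added. The adherent cells were collected near 80% confluency and received no added growth factor. The neurosphere medium also held B-27, 20 ng/ml EGF and 20 ng/ml FGF (which FGF was not stated), and these cells were collected after 12 days. Per the labels, trypsin was used on both cultures, the neurospheres were also broken up by pipetting through ever smaller tips, and the cells were frozen in DMSO before the libraries were made. EGF and FGF were therefore added to only 1 of the cultures, together with B-27 and the change in form. The parts played by these changes cannot be told apart.

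EGF-family ligands bind the ErbB receptors, which pair with themselves or each other and pass the signal on through a tyrosine kinase domain inside the cell. ErbB2 has no known ligand and serves as a favored partner, while ErbB3 binds neuregulins, has little kinase activity of its own and signals through its partners. The FGF receptors FGFR1 to FGFR4 are also tyrosine kinases and bind FGFs together with heparan sulfate chains, whereas FGFRL1 binds FGFs but has no kinase domain. EGF and FGF are the usual growth factors of neural sphere cultures, and altered EGFR is common in human glioblastoma.

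To show how these receptors differ in the part that signals, the coding sequence of each member's longest complete transcript (GENCODE, GRCm38) was translated and searched for the catalytic loop of tyrosine kinases. The pattern was histidine, arginine, aspartate or asparagine, leucine, alanine, alanine or leucine, arginine and asparagine; the choice of leucine at the sixth place was added after Erbb3 was read. Windows of 24 bases are shown for the 4 ErbB genes and for the most abundant FGF receptor kinases. The capitals mark the third codon, which held aspartate in all 8 kinase genes, and the sixth.
Egfr: caccgtGACttggcaGCCaggaat
Erbb2: cacaggGACctagctGCCcgaaac
Erbb3: cataggGACcttgcgCTCcggaat
Erbb4: catcggGATctggcaGCCcgcaat
Fgfr2: catcgaGATttggctGCCagaaac
Fgfr3: cacagaGACttggctGCCagaaac
The sixth codon coded for leucine in Erbb3 and for alanine in the other 7 kinase genes, and the coding sequence of Fgfrl1, of 529 codons, held no match. The Erbb3 window lies in exon 21 on the minus strand at chr10:128572533-128572556, and the Egfr window in exon 21 on the plus strand at chr11:16904338-16904361. The Erbb2 window is in exon 21 (plus strand, chr11:98434247-98434270) and the Erbb4 window in exon 21 (minus strand, chr1:68080739-68080762). The Fgfr2 window is in exon 14 on the minus strand at chr7:130172910-130172933, and the Fgfr3 window in exon 14 on the plus strand at chr5:33734353-33734376. The counts are per gene and cover no such window by itself.

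After the study's limits on cells and genes, 5051 adherent and 4276 neurosphere cells were kept, with 46290996 and 64943938 unique molecular identifiers (UMIs, each standing for 1 captured RNA molecule). The neurosphere cells were deeper, with a median of 13198.5 UMIs against 8260. A level is given as CPM, a gene's UMIs in all kept cells scaled so that each library has the same total. With 1 library per culture no test was possible, no difference has a replicate check, and every 95% interval covers counting error only. Of the 6 astrocyte markers that go with the line's label of astrocytoma, Aqp4 was at 0 UMIs in both libraries and Gfap had 30 adherent and 27 neurosphere UMIs, while Slc1a3 was at 370.4 and 80.5 CPM and S100b at 161 and 255 CPM. The 6 together were at 547 and 358 CPM. Of 8 immune cell markers, Ptprc had 1 adherent and 0 neurosphere UMIs, and their summed level was 13.7 CPM and 5.50 CPM, most of it Cd68. The oligodendrocyte lineage markers summed to 775 adherent and 2546 neurosphere CPM, with 4 of 7 over 2-fold higher, 1 over 2-fold lower and none at 0. Of the other marker lists, 3 moved more: those of simple epithelium summed to 25.9 and 3174 CPM, most of it Krt8 (3.93 and 3025 CPM), those of cartilage to 109 and 1108 CPM (Sox9 was at 0 in both), and those of fibroblasts or pericytes to 3.24 and 385 CPM. Neural stem markers summed to 353 and 462 CPM, neuron markers to 26.3 and 50.0 CPM and endothelial markers to 1.32 and 3.23 CPM. The part of these shifts in the receptor values was not tested. The called cells of both libraries shared 12 barcodes, of which 9 were among the kept cells.

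Receptors of either family were present in both cultures, but few genes made up most of the counts. In adherent cells, the ErbB genes together gave 58.0 CPM and Fgfr1 to Fgfr4 together 50.6 CPM, against 45.5 and 38.3 CPM in neurosphere cells. Fgfrl1 alone gave 159.8 CPM in the adherent and 328 CPM in the neurosphere library, which was 59.5% (95% interval 58.7 to 60.4) and 79.6% (79.2 to 80.1) of the UMIs of all 9 genes. The summed ErbB level had a log2 fold change, neurosphere against adherent, of -0.35 (-0.43 to -0.27), and the summed FGF receptor kinase level one of -0.40 (-0.48 to -0.32). The receptor without a kinase domain thus gave most of the UMIs in both libraries, and its share was larger in neurosphere cells.

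Of the 9 genes, 7 had at least 50 UMIs over both libraries. Of these, 1 (Fgfr3) was over 2-fold lower in neurosphere cells, where 11.7% of all 14654 genes with that many UMIs were. The number over 2-fold higher was 2 (Erbb4 and Fgfrl1), where 21.7% of all these genes were. The other 4 lay within 2-fold. The median log2 fold change of the 7 genes was -0.075, against 0.32 over all genes. With so few genes, these counts say nothing particular about the list, and the genes are described singly by family. Egfr, with 25 UMIs in all, and Fgfr4, with 6, were under the minimum.

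**Figure D1:**
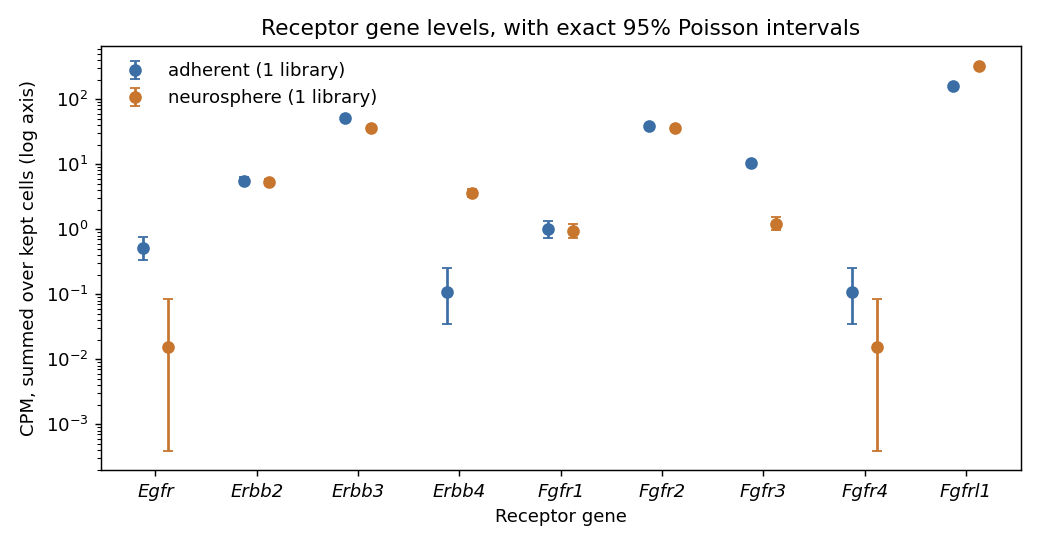
CPM of the 9 receptor genes (log axis) in the adherent and the neurosphere library, with exact 95% Poisson intervals. Fgfrl1 had the most UMIs in both, Erbb4 and Fgfrl1 were higher and Egfr and Fgfr3 lower in neurosphere cells, and the points of Erbb2, Fgfr1 and Fgfr2 were close together.

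Egfr (ENSMUSG00000020122, plus strand of chromosome 11, from 16752203 to 16913907 in RefSeq GRCm38.p6) codes for the receptor of EGF itself. It had 24 UMIs in 21 of the 5051 adherent cells and 1 UMI in the 4276 neurosphere cells, which is 0.518 CPM (0.332 to 0.771) and 0.0154 CPM (0.000390 to 0.0858). The receptor for the added EGF was thus nearly undetected at the RNA level in the culture that received EGF, and it was rare in the adherent cells as well. The level was 33.7-fold lower in neurosphere cells, with a counting interval as wide as 5.49- to 1385-fold. After each cell was thinned to 5000 UMIs, so that depth was equal, 0.269% of adherent cells held a UMI and 0 of 4196 neurosphere cells did, which by the limit of 3 counts allows a share of cells with a UMI of up to 0.0715% (the exact 2-sided interval reaches 0.0879%). This limits cells with a UMI, not cells that express the gene. The 1 neurosphere UMI of Egfr lay in cluster 3, and its adherent UMIs were spread over all 10 adherent clusters, with 1 to 6 UMIs in each. The level that free RNA gives could not be set, as every cell here is of 1 line and none can be taken to lack Egfr.

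Erbb2 (ENSMUSG00000062312, plus strand of chromosome 11, 98412484 to 98437716), the receptor without a known ligand, was present at nearly the same level in both cultures. It had 259 adherent and 345 neurosphere UMIs, or 5.60 CPM (4.93 to 6.32) and 5.31 CPM (4.77 to 5.90). The log2 fold change was -0.075 (-0.31 to 0.16), so that counting error alone leaves room for a difference of up to 1.24-fold lower or 1.12-fold higher. A UMI was seen in 4.93% of adherent and 7.32% of neurosphere cells, but in 2.69% (2.23 to 3.21) and 2.29% (1.86 to 2.79) of the thinned cells. The higher share in all kept neurosphere cells was therefore not seen at equal depth. Mien1, a gene on the opposite strand that overlaps Erbb2, had 11568 and 15387 UMIs.

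Erbb3 (ENSMUSG00000018166, minus strand of chromosome 10, 128567523 to 128589635), the neuregulin receptor, gave most of the ErbB UMIs in both cultures. It had 2397 adherent and 2376 neurosphere UMIs, which is 51.8 CPM (49.7 to 53.9) and 36.6 CPM (35.1 to 38.1), a log2 fold change of -0.50 (-0.58 to -0.42). It made up 89.3% of the ErbB UMIs of adherent cells and 80.4% of those of neurosphere cells. It was also first of the ErbB genes per kb of exon, at 8.61 and 6.08 CPM per kb. Thus most ErbB transcripts of this line came from the member with little kinase activity of its own, in either culture.

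Fewer neurosphere cells held Erbb3, and those that did held more of it. A UMI of Erbb3 was seen in 32.7% (31.5 to 34.1) of all kept adherent cells against 21.8% (20.6 to 23.1) of the neurosphere cells, and in 21.2% (20.0 to 22.4) and 12.6% (11.6 to 13.6) of the thinned cells. Cells with a UMI had on average 1.45 UMIs of Erbb3 in adherent and 2.54 in neurosphere cells, and 1.29 and 1.73 after thinning. The variance of Erbb3 UMIs over thinned cells divided by their mean, which is 1 for counts spread at random, was 1.31 in adherent and 2.50 in neurosphere cells. Among all kept neurosphere cells, 126 cells (2.95%) had 5 or more UMIs and held 41.0% of the Erbb3 UMIs, while 17 adherent cells held 3.96% of theirs. At equal depth, 25 thinned neurosphere cells with 5 or more UMIs held 16.4% and 2 thinned adherent cells 0.818%. The highest count in 1 cell was 19 UMIs in neurosphere and 8 UMIs in adherent cells. The lower mean level of Erbb3 in neurosphere cells thus came with a more uneven spread between cells.

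Erbb4 (ENSMUSG00000062209, minus strand of chromosome 1, 68031884 to 69108576), another neuregulin receptor with an active kinase, was nearly undetected in adherent cells. It had 5 UMIs, spread over 4 cells, in the adherent library and 233 UMIs, over 201 cells, in the neurosphere library, or 0.108 CPM (0.0351 to 0.252) and 3.59 CPM (3.14 to 4.08). The level was 33.2-fold higher in neurosphere cells, with a counting interval of 14.0- to 103-fold. Its share of the ErbB UMIs was 0.186% in adherent and 7.88% in neurosphere cells, so the ErbB counts of the neurosphere culture held a member that was close to missing in the adherent one. A UMI was seen in 0.0224% of thinned adherent cells and in 1.84% (1.45 to 2.29) of thinned neurosphere cells. Erbb4 spans 1077 kb, the longest of the 9 genes in RefSeq, and whether reads in introns were counted was not given in the sources used here. With the trend of fold change on RefSeq gene span removed, an alternative chosen after seeing the data, its log2 fold change was 4.13 in place of 5.05.

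Among the FGF receptor kinases, Fgfr1 (ENSMUSG00000031565, plus strand of chromosome 8, 25518759 to 25575718) was rare in both cultures. It had 46 adherent and 62 neurosphere UMIs, or 0.994 CPM (0.728 to 1.33) and 0.955 CPM (0.732 to 1.22), with a log2 fold change of -0.058 (-0.63 to 0.52). The share of thinned cells with a UMI was 0.560% and 0.572%. At this depth a difference of up to 1.55-fold lower or 1.44-fold higher could not have been told from counting error.

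Fgfr2 (ENSMUSG00000030849, minus strand of chromosome 7, 130162451 to 130266808) gave most of the FGF receptor kinase UMIs. It had 1815 adherent and 2348 neurosphere UMIs, 39.2 CPM (37.4 to 41.1) and 36.2 CPM (34.7 to 37.6). The log2 fold change of -0.12 (-0.21 to -0.028) became 0.10 with the removed mitochondrial and ribosomal genes put back into the total, and -1.29, past the 2-fold line, with the trend on GENCODE gene span removed (-0.33 with the RefSeq span), so no direction is given. The share of cells with a UMI was 28.0% in adherent and 38.7% in neurosphere cells, against the order of the CPM. At equal depth it was 16.8% (752 of 4464 cells) and 16.9% (711 of 4196 cells). The ratio of variance to mean over thinned cells was 1.10 and 1.03, close to a spread at random, unlike that of Erbb3.

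Fgfr3 (ENSMUSG00000054252, plus strand of chromosome 5, 33721724 to 33737068) differed most between the cultures among the FGF receptor genes with at least 50 UMIs. The adherent library held 478 UMIs over 372 cells and the neurosphere library 79 UMIs over 76 cells, 10.3 CPM (9.42 to 11.3) and 1.22 CPM (0.963 to 1.52). The level was 8.49-fold lower in neurosphere cells (6.68- to 10.9-fold), a log2 fold change of -3.09 (-3.45 to -2.74). The share of thinned cells with a UMI was 5.00% (4.37 to 5.68) in adherent and 0.548% (0.348 to 0.821) in neurosphere cells. Fgfr3 made up 20.4% (18.8 to 22.1) of the FGF receptor kinase UMIs in adherent and 3.17% (2.52 to 3.94) in neurosphere cells, while Fgfr2 made up 77.4% and 94.3%. In the culture that received FGF, the kinase transcripts were thus close to Fgfr2 alone.

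Fgfr4 (ENSMUSG00000005320, plus strand of chromosome 13, 55152818 to 55168759) had 5 adherent UMIs and 1 neurosphere UMI, or 0.108 CPM (0.0351 to 0.252) and 0.0154 CPM (0.000390 to 0.0858). These counts are too few for a direction, with a log2 fold change of -2.81 (-8.37 to 0.35).

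Fgfrl1 (ENSMUSG00000008090, plus strand of chromosome 5, 108694229 to 108706950), the FGF receptor without a kinase, had 7397 adherent and 21303 neurosphere UMIs. Its level was 159.8 CPM (156 to 163) among adherent and 328 CPM (324 to 332) among neurosphere cells, 2.05-fold higher (2.00 to 2.11), with a log2 fold change of 1.04 (1.00 to 1.08). This lies at the 2-fold line, and with TMM scaling, which moved the median of all genes by -0.22, the log2 fold change was 0.82. Of all kept cells, 68.9% (adherent) and 94.2% (neurosphere) held a UMI, as did 52.4% (50.9 to 53.8) and 76.1% (74.8 to 77.4) of the thinned cells. Thinned cells with 5 or more UMIs of Fgfrl1 were 0.493% of adherent and 7.60% of neurosphere cells, so the higher level was shared by many cells.

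**Figure D2:**
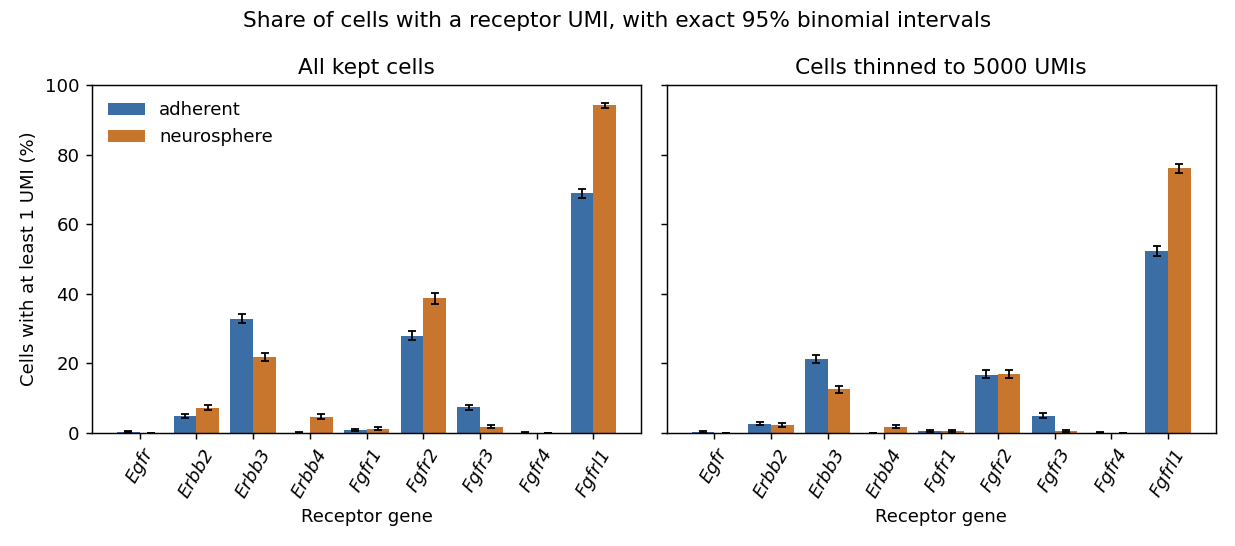
Percent of cells with at least 1 UMI of each receptor gene in all kept cells and in cells thinned to 5000 UMIs, with exact 95% binomial intervals. The higher neurosphere share of Fgfr2 in all kept cells (38.7% against 28.0%) was not seen in thinned cells (16.9% against 16.8%), while Erbb3 and Fgfr3 were lower and Fgfrl1 higher in both.

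**Figure D3:**
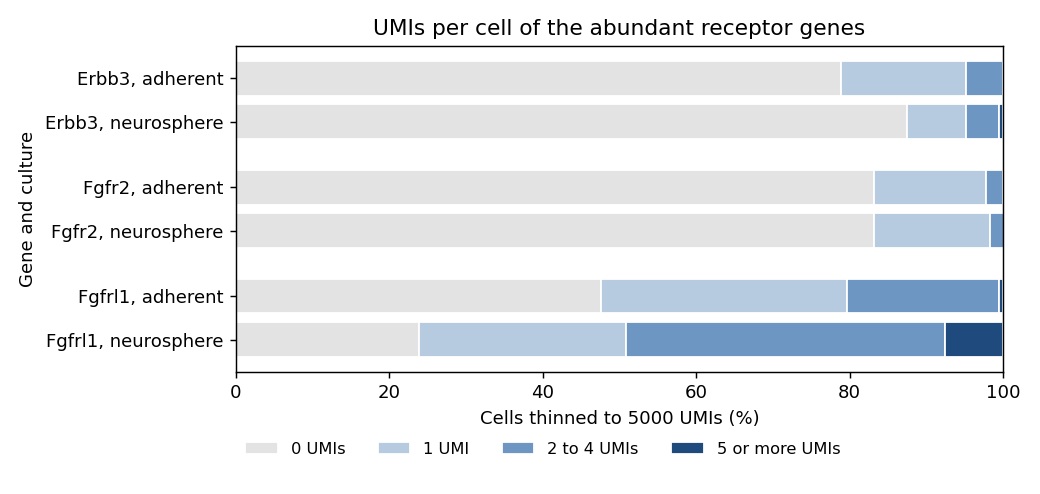
Percent of cells thinned to 5000 UMIs with 0, 1, 2 to 4, or 5 or more UMIs of Erbb3, Fgfr2 and Fgfrl1 in each culture. Erbb3 was seen in fewer neurosphere cells but reached 5 or more UMIs in 0.596% of them against 0.0448% of adherent cells, Fgfr2 had nearly the same spread in both, and Fgfrl1 was moved towards more UMIs in neurosphere cells.

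To set the genes beside each other, CPM was divided by the length of each gene's merged exons in kb (GENCODE). The 3' protocol counts RNA ends, so this scale is only a rough guide to molecules. In adherent cells, the levels per kb were 61.7 for Fgfrl1, 8.61 for Erbb3, 7.67 for Fgfr2, 2.35 for Fgfr3, 1.12 for Erbb2 and 0.191 for Fgfr1. Below these came Egfr at 0.0473, Fgfr4 at 0.0325 and Erbb4 at 0.00894 CPM per kb, of which the intervals of Egfr and Fgfr4, and of Fgfr4 and Erbb4, overlapped. In neurosphere cells, the levels per kb were 127 for Fgfrl1, 7.07 for Fgfr2, 6.08 for Erbb3, 1.06 for Erbb2, 0.297 for Erbb4, 0.277 for Fgfr3 and 0.183 for Fgfr1. Fgfr4 was at 0.00463 and Egfr at 0.00141 CPM per kb. The intervals of neighbours overlapped for Erbb4 and Fgfr3, for Fgfr3 and Fgfr1, and for Fgfr4 and Egfr. The same 3 genes, Fgfrl1, Erbb3 and Fgfr2, led in both libraries, while Erbb4 was last in adherent cells and came after Erbb2 in neurosphere cells.

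At equal depth, each receptor family was seen in a minority of cells, and both together in fewer. A UMI of any ErbB gene was seen in 23.5% (22.3 to 24.8) of thinned adherent and 16.0% (14.9 to 17.2) of thinned neurosphere cells. For any of Fgfr1 to Fgfr4, the shares were 21.5% (20.3 to 22.7) and 17.8% (16.7 to 19.0). Adherent cells with both made up 5.49% and neurosphere cells with both 3.15%, and 60.5% and 69.3% had neither. These low shares with both do not show that the families were kept apart. Fgfr2 was seen in 16.1% (13.8 to 18.6) of adherent cells with Erbb3 and 17.1% (15.8 to 18.3) of those without. In neurosphere cells these shares were 19.3% (16.0 to 22.9) and 16.6% (15.4 to 17.8). Fgfrl1 with no FGF receptor kinase UMI was seen in 40.7% of adherent and 62.5% of neurosphere cells. A cell with no UMI at this depth may still express the gene, so these shares describe capture as well as expression. Among thinned adherent cells, Erbb3 was seen in 30.5% (24.5 to 37.0) of the 223 cells with a UMI of Fgfr3 and in 20.7% (19.5 to 22.0) of those without. For Fgfr2 the matching shares with and without Fgfr3 were 16.6% (12.0 to 22.1) and 16.9%. Fgfrl1 was seen in 60.1% (53.3 to 66.6) of the adherent cells with Fgfr3 and 52.0% (50.5 to 53.5) of those without. It was seen in 57.9% (54.7 to 61.1) of the adherent cells with Erbb3 and 50.9% (49.2 to 52.5) of those without. In thinned neurosphere cells, Fgfrl1 was seen in 79.0% (75.2 to 82.4) of the cells with Erbb3 and 75.7% (74.3 to 77.1) of those without. In adherent cells the intervals did not overlap for Erbb3 with Fgfr3 and for Fgfrl1 with Erbb3. They overlapped for the other pairs given. No test stands behind these differences.

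The cells of each library were clustered separately into 10 clusters, which are called by number and by their leading genes. The clusters are a description, since the receptor genes were among the genes clustered. Erbb3 itself was among the 10 leading genes of adherent cluster 5 and neurosphere cluster 6. In neurosphere cells, Erbb3 ranged from 7.24 CPM (5.36 to 9.58) in cluster 7, led by the S-phase gene Rrm2, to 160.4 CPM (148 to 174) in cluster 6, led by Mbp, Enpp2 and Ppp2r2b. Cluster 6 held 394 cells (9.21%), and its summed oligodendrocyte lineage markers were at 5575 CPM against 2364 CPM in the other neurosphere cells. There the astrocyte markers summed to 954 CPM against 322 CPM, and those of simple epithelium to 582 CPM against 3329 CPM. Cluster 0, led by Depdc1b and the mitosis gene Top2a, was second at 75.4 CPM, and cluster 1, led by Pdzd2 and Comp, was at 9.58 CPM. In adherent cells the range was narrower, from 29.8 CPM in cluster 3, led by Areg and Ube2c, to 93.4 CPM (79.9 to 108) in cluster 8, led by Ly6a and Cd81. Cluster 5, led by Cdc20, was within counting error of it at 91.6 CPM, and at a resolution of 0.8 a cluster of 49 cells led by Lars2 was highest at 110.1 CPM, so the highest adherent cluster is not settled. With the 9 receptor genes left out of the clustering (also chosen after seeing the data), the highest neurosphere cluster was again led by Mbp and Enpp2, at 165 CPM of Erbb3. Erbb3 was thus highest in the neurosphere cluster led by the myelin gene Mbp, with a ratio of highest to lowest cluster of 22.1 against 3.14 in adherent cells.

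The other members varied less or were less abundant. Fgfrl1 was higher in every neurosphere cluster with at least 100 cells except cluster 5 than in all adherent clusters, from 209 CPM (199.9 to 218) in cluster 5, led by Lpcat2 and Lgals3, to 519 CPM (499.6 to 539.7) in cluster 1. The adherent clusters ranged from 83.0 CPM in cluster 9 to 219 CPM (207 to 232) in cluster 2, led by Ccl5, 9130015A21Rik and the cartilage collagen Col2a1. Adherent cluster 9, led by Lars2, Pcdh9 and Neat1, held 48 cells with a median of 2623.5 UMIs, which is 0.318 of the library's median. Fgfr2 was at 106 CPM (57.7 to 177) there, from 14 UMIs. In neurosphere cells, Fgfr2 was highest in cluster 9, led by Ccl2 and Hmox1, with 75 cells, at 70.1 CPM (53.7 to 89.8) from 62 UMIs, which is 2.43 times the lowest cluster. A cluster led by Ccl2 was also highest for Fgfr2 at a resolution of 0.8 (239 cells, 56.2 CPM) and without the receptor genes in the clustering (138 cells, 62.7 CPM). Without the clusters of under 100 cells, a choice likewise made after seeing the data, Fgfr2 ranged from 23.0 to 65.7 CPM in adherent and from 28.9 to 48.5 CPM in neurosphere cells.

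Fgfr3 in adherent cells was at 25.0 CPM in cluster 2 and 1.63 CPM in cluster 8, among clusters with at least 100 cells. In neurosphere cells it was at 3.39 CPM (1.98 to 5.43) in cluster 1 and lower in the other clusters. No neurosphere cluster thus came near the 10.3 CPM of the adherent library. Erbb4 was highest in neurosphere cluster 6, at 10.3 CPM (7.32 to 14.2), and lowest in cluster 5, at 1.11 CPM (0.552 to 1.98), and it was detected in all 10 neurosphere clusters. Both neuregulin receptors, Erbb3 and Erbb4, thus had their highest neurosphere level in the same cluster. Fgfr1 was highest in neurosphere cluster 4, led by Chit1 and S100a6, at 3.28 CPM (1.98 to 5.13), from 19 of its 62 UMIs. Erbb2 ranged from 3.55 to 7.91 CPM over the neurosphere clusters.

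**Figure D4:**
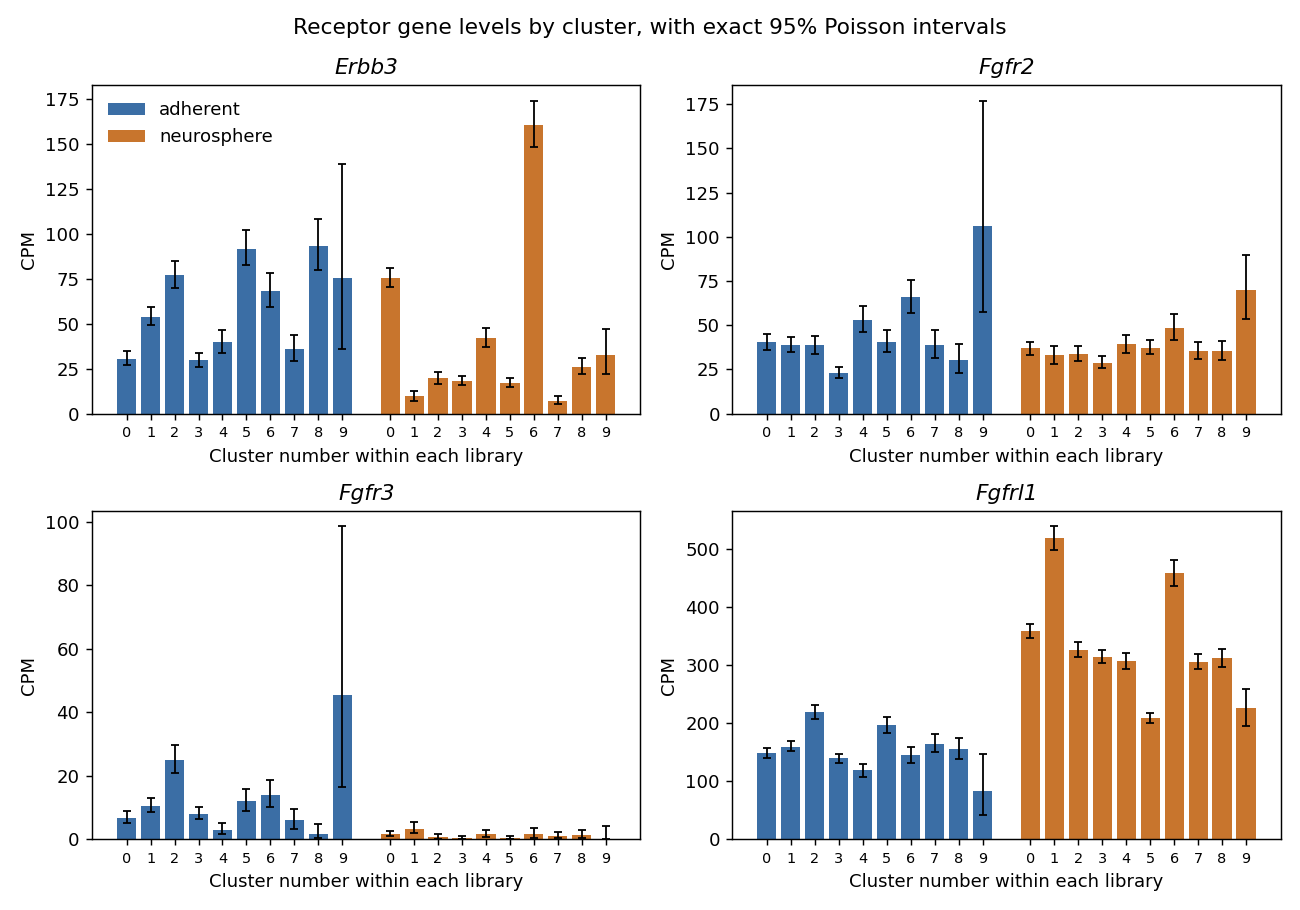
CPM of Erbb3, Fgfr2, Fgfr3 and Fgfrl1 in each of the 10 clusters of each library, with exact 95% Poisson intervals. Erbb3 stood at 160.4 CPM in neurosphere cluster 6 and at 7.24 CPM in cluster 7, Fgfr3 was low in every neurosphere cluster, and the wide intervals belong to the small clusters numbered 9.

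For each member with at least 500 UMIs, the genes with the most similar pattern over the 20 clusters were found among 10522 genes, with each library centered on its own mean. These correlations describe clusters of 2 libraries, which share depth and composition, and have no test. For Erbb3 they were Sox2 (r = 0.88), a neural stem transcription factor, Gm4876 (0.87) and Cav1 (0.85), a caveolar protein gene. Within the adherent clusters alone r was 0.85, 0.62 and 0.40, and within the neurosphere clusters alone 0.90, 0.94 and 0.92, so the likeness of Gm4876 and Cav1 came mostly from the neurosphere library. For Fgfr3 they were the cartilage collagens Col2a1 (0.90) and Col9a2 (0.90), and Gpr37 (0.88), an orphan receptor gene. For Fgfrl1 they were Nit1 (0.91), Zfand1 (0.90) and Pfn2 (0.89), and for Fgfr2 Gm26658, AI597479 and Zfp941 (each 0.91). For Erbb2, Toe1 (0.96), Unc119b (0.96) and Ptges2 (0.95) came first, but without the clusters of under 100 cells these were at 0.45, 0.47 and 0.46. The pattern of Erbb2 therefore rested on the small clusters, while the genes named for the other members were at 0.79 or more without them.

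The partners of these receptors were described from lists of ligands, co-receptors and signaling genes, counting genes with at least 50 UMIs against the same 2-fold line, past which 21.7% of all genes were higher and 11.7% lower. Of 8 EGF-family ligands, 2 were over 2-fold higher and 2 over 2-fold lower in neurosphere cells, with a median log2 fold change of -0.32. Hbegf and Areg, ligands of EGFR, were lower, at 325 and 22.4 CPM in adherent against 32.7 and 2.56 CPM in neurosphere cells. Egf was at 1.71 and 4.17 CPM, and Nrg2, a neuregulin, at 2.55 and 5.84 CPM. The ligand transcripts of the EGF family, summed over all 11 listed genes, came to 394 adherent and 102 neurosphere CPM, a difference that lay in Hbegf. Tgfa, another EGFR ligand, was at 39.1 and 53.7 CPM. Of 6 secreted FGFs, 0 were over 2-fold higher and 3 over 2-fold lower, with a median of -1.04. Fgf2 was at 2.68 and 0.169 CPM and Fgf21 at 2.35 and 0.493 CPM, while Fgf20, at 0.972 and 0.678 CPM, and Fgf9, at 0.951 and 0.631 CPM, were nearest to no change. Fgf transcripts were thus scarce in both cultures.

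Of 12 co-receptors and heparan sulfate carriers, 2 were higher and 1 lower past 2-fold, with a median of 0.094. The glypican Gpc5 was at 1.30 adherent and 17.4 neurosphere CPM, Flrt1 at 0.842 and 3.66 CPM, the syndecan Sdc4 at 19.2 and 2.12 CPM, and Sdc3 at 1.38 and 0.739 CPM. Of 12 receptor adaptors, 2 were higher and 0 lower, with a median of 0.53. Gab1, a docking protein of both families, was at 10.3 and 35.2 CPM, and Frs3, an FGF receptor substrate, at 2.92 and 8.55 CPM, while Ptpn11 and Plcg1 had log2 fold changes of 0.13 and 0.20. Of 11 RAS-ERK cascade genes, 2 were higher and 0 lower, with a median of 0.060. Map2k1 was at 41.0 and 84.1 CPM, a log2 fold change of 1.04 close to the line, and Mapk3 and Ksr1 had log2 fold changes of -0.89 and -0.71. All 11 genes of the cascade were thus detected in both cultures.

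Of 12 receptor-level inhibitors, 1 was higher and 3 were lower past 2-fold, with a median of 0.58. Lrig1, which promotes ErbB turnover, was at 1.45 adherent and 3.63 neurosphere CPM, and Lrig3 had a log2 fold change of 0.78. Cblc, a ubiquitin ligase gene, had 139 adherent and 20 neurosphere UMIs, a log2 fold change of -3.29, and Sh3kbp1, which takes part in receptor uptake, was at 254 and 98.9 CPM. Of 19 feedback and target genes of ERK signaling, 4 were higher and 5 lower, with a median of 0.21. Egr1 was at 36.8 and 137 CPM and Spry1 had a log2 fold change of 1.51, while Ier3 was at 260.4 and 45.6 CPM and Fosl1 at 19.4 and 5.31 CPM. The ERK targets thus had members on both sides.

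Of 29 other receptor tyrosine kinases with enough UMIs, 10 were over 2-fold higher and 4 over 2-fold lower in neurosphere cells, with a median of 0.30. Kit was at 0.173 adherent and 11.9 neurosphere CPM and Ephb2 at 0.173 and 2.23 CPM. Epha2 was at 3.69 and 0.231 CPM and Axl at 47.6 and 7.13 CPM. Differences as large as those of Erbb4 and Fgfr3 were thus seen in other receptor kinase genes as well.

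**Figure D5:**
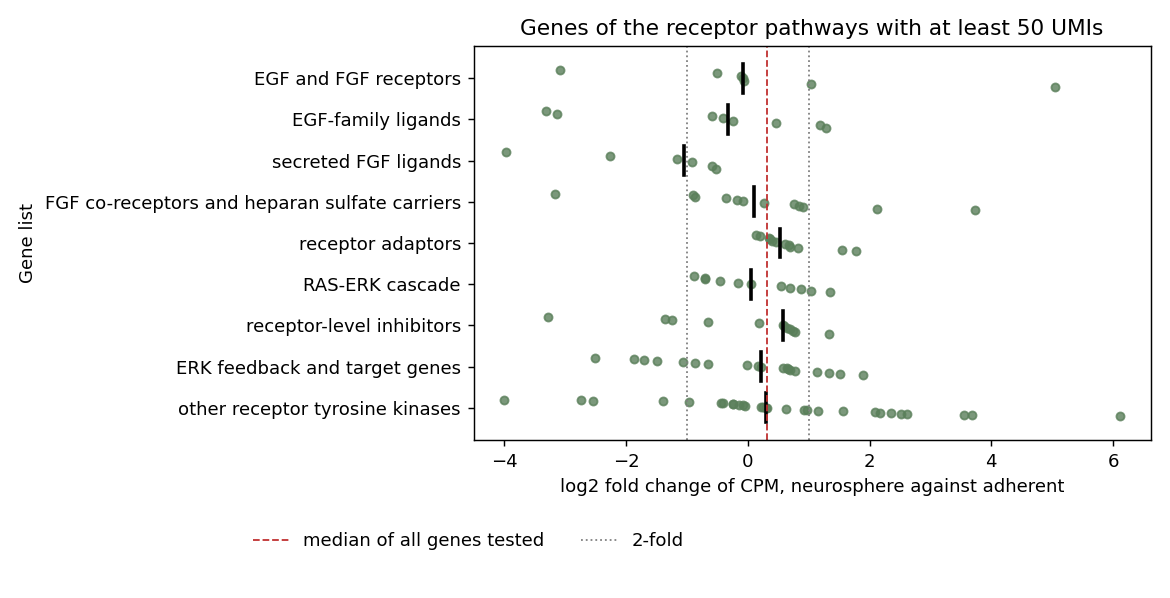
log2 fold change of CPM, neurosphere against adherent, for each gene with at least 50 UMIs in the receptor list and 8 lists of ligands, co-receptors and signaling genes (points), with each list's median (black bar), the median of all genes tested (dashed) and the 2-fold lines (dotted). The secreted FGFs had the lowest list median (-1.04), and all 6 lay below 0.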

How the data were processed

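The data were 1 single-cell library of adherent and 1 of neurosphere GL261 cells (single cell 3' v3 protocol, 10x Genomics). The authors deposited raw UMI counts per gene and called cell, without normalization; the submitters' processing notes name Cell Ranger 7.0.1 and mm10, and the setting for intron reads was not given in the sources used here. The members and lists were chosen with earlier results of these data known.

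After the study's methods, 13 mitochondrial and 101 ribosomal genes were removed, then cells with under 1000 UMIs or under 1250 genes (adherent) or 2250 genes (neurosphere). This kept 5051 of 5764 adherent and 4276 of 4951 neurosphere cells, slightly fewer than the study states, with 46290996 and 64943938 UMIs. UMIs were summed per library as CPM, with exact 95% intervals (Poisson for levels, conditional for fold changes, Clopper-Pearson for shares) that cover counting error only. In simulated data the interval for fold changes held the true value for 95.0% of 14654 genes, which does not bear on variation between cultures. With 1 library per culture, no test was run. A 2-fold line was used where both libraries together held at least 50 UMIs of a gene. For equal depth, cells were thinned to 5000 UMIs, and 587 adherent and 80 neurosphere cells below that were left out. No doublets were called, and cells over the 95th percentile of UMIs were left out as an alternative.

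Each library was clustered in Seurat 5.3.0 (R 4.3.3) with 2000 variable genes, 17 PCs (adherent) or 18 PCs (neurosphere) and a resolution of 1.0. Leading genes are the 3 with the largest ratio of CPM + 10 against the other cells of the library. All 9 members are named, and for each member with at least 500 UMIs the 3 genes of most similar log2(CPM + 1) over clusters. Of each further list, the 2 highest and 2 lowest log2 fold changes are named, except 1 gene that is not reported here, and a few marker genes were named after their values were seen. Gene positions are from RefSeq, since the GENCODE span of Fgfr2 was far longer, and exon lengths from GENCODE, where 32044 gene identifiers matched. Alternatives were other cell limits, UMI minimums, TMM scaling (edgeR 4.0.16), removed genes kept in the total, trends on length and GC content, and other clusterings. The remaining steps ran in Python 3.11.15 (scipy 1.17.1, statsmodels 0.14.6, numpy 2.4.6, matplotlib 3.10.9, pandas 2.3.3).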

Additional observations from a re-analysis of the deposited data

How the results depend on the processing

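No paired analysis was possible because each culture had 1 library, and no replicate could be left out. With TMM scaling, 1 receptor gene (Erbb4) was over 2-fold higher in place of 2, and the log2 fold change of the summed ErbB genes was -0.57 and of the summed FGF receptor kinases -0.62. With the removed mitochondrial and ribosomal genes put back these were -0.13 and -0.18, and with thinned cells the ErbB sum was -0.23. TMM scaling moved the median of all genes by -0.22 and putting those genes back moved it by 0.22. With the length trend removed, 2 receptor genes were over 2-fold lower, Fgfr2 joining Fgfr3 at -1.29; with the RefSeq span, chosen after seeing the data, Fgfr2 was at -0.33. With a minimum of 10 UMIs, 2 receptor genes (Egfr and Fgfr3) and 2651 of all 18062 genes were lower, against 1711 of 14654 in the main setting. With no minimum but 1 UMI in each library, 3 receptor genes (also Fgfr4) and 3238 of 20110 genes were lower. The calls thus rose over all genes as well. With at least 500 UMIs, 1 receptor gene (Fgfrl1) was higher, and of all 10523 genes with that many, 845 were lower and 2012 higher. Of the 5 members with at least 500 UMIs, the number whose highest cluster was over 2 times the lowest was 3 in neurosphere cells at a resolution of 0.8, and 3 in either library without clusters of under 100 cells. The log2 fold changes over all alternatives were 4.13 to 6.39 for Erbb4, -3.34 to -2.87 for Fgfr3, -0.72 to -0.28 for Erbb3 and 0.82 to 1.27 for Fgfrl1, while Erbb2 (-0.29 to 0.15), Fgfr1 (-0.27 to 0.16) and Fgfr2 (-1.29 to 0.10) changed sign. Except where an alternative's own construction shows it, the cause was not tested.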

Other observations

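The barcodes left out by the limits on UMIs and genes, 713 in the adherent and 675 in the neurosphere library, also held receptor UMIs on the genes kept. In the neurosphere library they had 250 UMIs of Fgfrl1 (435 CPM, 95% interval 383 to 492), 34 of Fgfr2 (59.2 CPM, 41.0 to 82.7) and 29 of Erbb3 (50.5 CPM, 33.8 to 72.5). In the adherent library they had 53 UMIs of Fgfrl1 (135 CPM, 101 to 177), 38 of Fgfr2 (96.9 CPM, 68.6 to 133) and 40 of Erbb3 (102 CPM, 72.9 to 139). Egfr and Fgfr4 were at 0 in the left-out barcodes of both libraries. The median share of mitochondrial UMIs in them was 48.8% in the adherent and 87.0% in the neurosphere library, against 2.02% and 3.97% in the kept cells.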
